A study of Mus musculus with 5 samples.

Results

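A pair of windows of the mouse genome was followed, those that hold the Serpina and the major urinary protein (Mup) gene clusters. The windows were set by position, at chr12:104850001-105750000 for Serpina (900 kb) and chr4:59850001-61800000 for Mup (1950 kb) in the deposited coordinates. They were cut into bins of 10 kb, 90 for Serpina and 195 for Mup, together 285 of the 258187 bins of the genome. They also held 147 and 57 of the 186413 peak regions made by joining the peaks of all tissues.

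The study mapped RNA polymerase II by chromatin immunoprecipitation and sequencing in freshly dissected liver, brain, kidney, lung and spleen of adult FVB mice, to find the promoters in use in each tissue. Each tissue gave 1 library, all made with the same antibody from Abcam. All animals were of the FVB strain, and no mutant, treated or input library was analysed here. There were no replicates, so no test between tissues was made.

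Serpina genes encode serine protease inhibitors, and many of their proteins are secreted by hepatocytes into the blood. Members of the Serpina1 group are the mouse counterparts of alpha-1 antitrypsin, which inhibits neutrophil elastase, and Serpina6 encodes corticosteroid-binding globulin. Mup genes encode small lipocalins that carry volatile pheromones. Hepatocytes make much of this protein, and it passes into the urine. Both families grew by tandem duplication, and a read from a sequence with an identical copy has no single place to which it can be aligned.

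In GRCm38.p6, the build of the gene table used here, the Serpina cluster of chromosome 12 held 28 symbols of the family. Their order was Serpina10, Serpina6, Serpina16, Serpina1f, Serpina1b, Serpina1d, Serpina1a, Serpina1c, Serpina1e, Serpina11, Serpina9, Serpina12, Serpina4-ps1 and Serpina5, followed by the Serpina3 group of Serpina3a to Serpina3n. Serpina10 inhibits activated coagulation factor X together with protein Z, Serpina5 is the protein C inhibitor, Serpina12 is the adipokine vaspin, and the Serpina3 group is related to human antichymotrypsin. The Mup cluster of chromosome 4 held 44 symbols, of which 22 carried the suffix -ps of a pseudogene. Of these 22, the gene table gives Mup-ps12 and Mup-ps16 as protein coding and Mup-ps15 as a long noncoding RNA. The cluster opened with Mup4 and Mup6 and closed with Mup20, Mup3 and Mup21, where Mup20 encodes darcin, a male pheromone. The read lists use another build than this table, since the last read on chromosome 7, at 152524509, lay past the end of the last gene of the table. No gene was therefore placed at a deposited position, and the tissue labels were not checked against marker genes.

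Promoters of both families were compared to show how alike the copies are. RefSeq entries of 300 bases, 250 before to 50 after a start, were matched by symbol for 18 Serpina and 17 Mup genes. Of the Mup genes 14 lacked the suffix -ps, and the others were Mup-ps12, Mup-ps15 and Mup-ps16. The 250 bases before the start are given here in the GRCm38.p6 build for the pair of each family with the fewest differences when whole entries were aligned, and for the member with the most differences from its nearest relative in such alignments. Capitals mark bases that lie in a word of 35 bases also found, on either strand, in the entry of another gene.
Mup15 (chr4:61439705-61439954, minus strand): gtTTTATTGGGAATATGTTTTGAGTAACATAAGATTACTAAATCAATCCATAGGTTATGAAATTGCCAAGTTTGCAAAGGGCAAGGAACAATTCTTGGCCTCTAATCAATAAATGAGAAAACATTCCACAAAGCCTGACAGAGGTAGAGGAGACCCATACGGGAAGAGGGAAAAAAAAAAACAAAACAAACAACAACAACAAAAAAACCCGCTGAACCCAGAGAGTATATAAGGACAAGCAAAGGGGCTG
Mup17 (chr4:61595833-61596082, minus strand): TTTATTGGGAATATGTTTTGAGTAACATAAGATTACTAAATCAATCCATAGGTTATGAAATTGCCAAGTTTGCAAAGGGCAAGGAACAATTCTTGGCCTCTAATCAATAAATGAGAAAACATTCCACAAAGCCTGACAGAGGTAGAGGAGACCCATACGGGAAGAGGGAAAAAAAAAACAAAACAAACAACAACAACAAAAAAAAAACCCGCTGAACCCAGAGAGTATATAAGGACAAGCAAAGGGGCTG
Mup7 (chr4:60070476-60070725, minus strand): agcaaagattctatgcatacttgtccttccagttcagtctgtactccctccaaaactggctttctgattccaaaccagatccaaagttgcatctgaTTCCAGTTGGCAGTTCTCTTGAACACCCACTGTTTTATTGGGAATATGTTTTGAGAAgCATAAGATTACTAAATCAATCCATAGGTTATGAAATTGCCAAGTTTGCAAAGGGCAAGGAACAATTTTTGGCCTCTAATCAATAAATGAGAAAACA
Serpina1b (chr12:103738190-103738439, minus strand): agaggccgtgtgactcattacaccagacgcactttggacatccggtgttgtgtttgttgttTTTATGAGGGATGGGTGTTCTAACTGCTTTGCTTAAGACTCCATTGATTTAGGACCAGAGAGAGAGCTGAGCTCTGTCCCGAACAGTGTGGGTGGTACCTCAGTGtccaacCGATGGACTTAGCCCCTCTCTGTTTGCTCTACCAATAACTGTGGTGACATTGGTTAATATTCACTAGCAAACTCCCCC
Serpina1c (chr12:103904951-103905200, minus strand): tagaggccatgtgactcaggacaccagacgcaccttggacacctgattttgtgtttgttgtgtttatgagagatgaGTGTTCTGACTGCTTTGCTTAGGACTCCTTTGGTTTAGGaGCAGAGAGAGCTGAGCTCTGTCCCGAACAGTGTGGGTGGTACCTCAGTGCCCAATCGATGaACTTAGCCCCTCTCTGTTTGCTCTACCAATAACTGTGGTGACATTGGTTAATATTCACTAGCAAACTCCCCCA
Serpina12 (chr12:104044444-104044693, minus strand): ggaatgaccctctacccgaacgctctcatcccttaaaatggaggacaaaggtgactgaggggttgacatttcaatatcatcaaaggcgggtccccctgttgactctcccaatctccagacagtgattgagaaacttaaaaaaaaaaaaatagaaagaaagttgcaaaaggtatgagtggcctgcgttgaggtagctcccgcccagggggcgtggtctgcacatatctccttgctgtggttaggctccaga

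Mup15 and Mup17 differed in 6 of 303 aligned columns, with 297 identical, and nearly all of their letters are capitals. Counted in shared words, Mup15 was instead closest to Mup19, with 241 in common, and Mup17 was closest to Mup15, with 212. The capitals of Mup7 begin only part of the way along, and the later ones nearly match the opening of Mup15 and Mup17. Its entry is thus shifted against theirs, and unmatched ends count as differences in these alignments. Mup7 shared 25.6% of its 35-base words with other entries, so by words it was not the least alike. Mup21, Mup3 and Mup-ps15 shared fewer, 4.14%, 7.52% and 10.9%, as did Mup4, Mup10 and Mup6, at 16.9%, 18.4% and 23.7%. Serpina1b and Serpina1c had the fewest differing columns of their family, 26 of 302, with 276 identical. By shared words the closest entry to each of them was instead Serpina1e, with 128 words in common with Serpina1b and 66 with Serpina1c. Serpina12 shared no word of 35 bases with another entry.

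Of the 35-base words of the 17 Mup entries, 2336 of 4522 (51.7%) also occurred in the entry of another gene. For the 18 Serpina entries it was 621 of 4788 (13.0%), and over all 27025 genes of the table it was 11.4%, a figure that includes neighbouring genes whose entries overlap. Every Mup entry held a shared word, and 9 of 17 (52.9%) were over 50%. Over all genes of the table, 21.6% of entries held a shared word and 11.5% were over 50%. The share per Mup entry ran between 4.14% in Mup21 and 99.2% in Mup15. Among the Serpina entries, 2 of 18 (11.1%) were over 50%, near the share over all genes, and 7 (38.9%) held a shared word. The 7 were the 5 entries of Serpina1a to Serpina1e, at 23.3% to 64.3%, and Serpina3c and Serpina3n, each at 12.4%. None of the shared words of either family occurred in the entry of a gene outside the family. Only start sites were compared here, so copies elsewhere in the genome are not counted. The letters TATAAA, searched on both strands, stood in 4 of 18 Serpina entries (22.2%), in 2 of 17 Mup entries (11.8%) and in 14.2% of all entries.

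**Figure D1:**
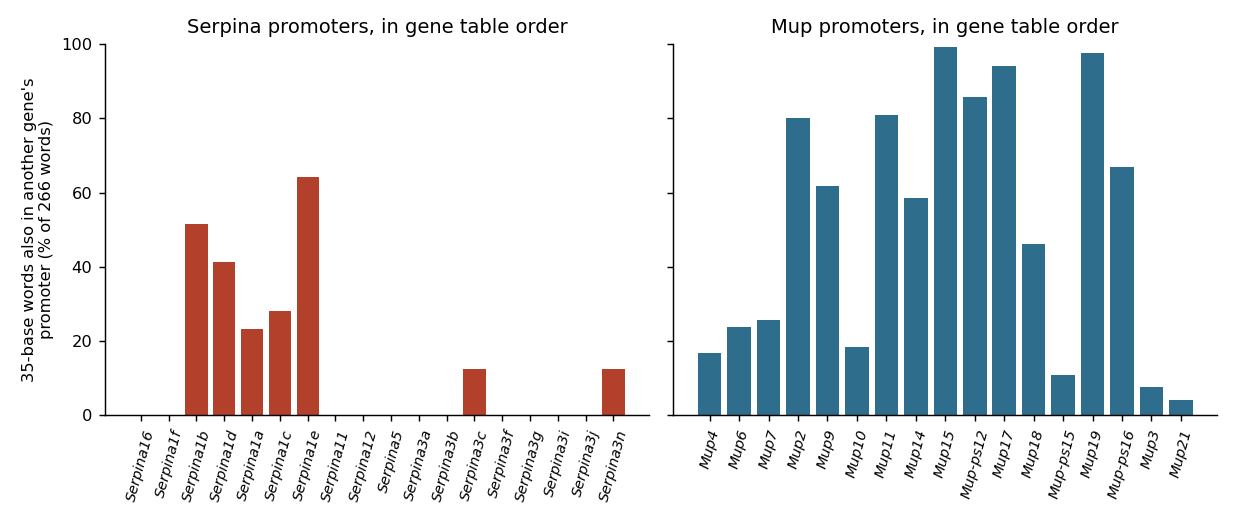
Share of the 35-base words of each RefSeq promoter entry that also occur in the entry of another gene, in percent, for Serpina genes (left) and Mup genes (right) in the order of the gene table. Mup bars range between 4.14% and 99.2%, and 11 of 18 Serpina entries are at 0.

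Over the whole Serpina window, liver had the most polymerase reads of the 5 tissues. It had 12288 reads, against 3979 in spleen, 3535 in kidney, 2604 in lung and 2068 in brain. This was 0.0821% (0.0807 to 0.0836) of the liver library and 0.0201% to 0.0300% of the others, with 95% exact binomial intervals. Read density in the window was 2.36 times the genome mean in liver and 0.576 to 0.859 times that mean in the other tissues. Libraries were scaled by the median of their ratios over the 8222 peak regions where each tissue had at least 20 reads. On that scale liver was 5.25 times brain (95% interval 5.01 to 5.50), 3.25 times kidney (3.13 to 3.37), 4.58 times lung (4.39 to 4.78) and 1.77 times spleen (1.71 to 1.84). With scaling by total reads liver was 4.09 times brain, 3.20 times kidney, 3.42 times lung and 2.74 times spleen. These intervals, and those that follow, cover counting error only, and reads that carry no molecular identifier are not independent molecules. In whole tissue, a smaller share of cells of a type and less polymerase per cell cannot be told apart.

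The Mup window held fewer reads than the genome mean in every tissue. Liver had 5159 reads, brain 1438, kidney 1969, lung 1450 and spleen 2220. The density in liver was 0.456 times the genome mean, and in the other tissues 0.177 to 0.221 times. Liver was again the highest, at 3.17 times brain (2.99 to 3.36) and 2.45 times kidney (2.32 to 2.58). It was 3.45 times lung (3.26 to 3.66) and 1.33 times spleen (1.27 to 1.40). With total reads it was 2.47 times brain, 2.41 times kidney, 2.58 times lung and 2.06 times spleen. Reads fell evenly on both strands, with 49.0% to 51.5% on the plus strand in all 10 combinations of window and library.

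The libraries held 14964934 reads for liver, 10292262 for brain, 13786536 for kidney, 10846976 for lung and 13283124 for spleen. In that order, scaling factors were 1.17, 1.03, 1.09, 1.13 and 0.671 by the median of ratios, and 1.20, 0.823, 1.10, 0.867 and 1.06 by total reads, so spleen depended most on the choice. Reads at a position and strand already taken by another read made up 8.87% of the liver library and 4.51% to 8.52% of the others. The authors' lists held 57816 liver peaks, 91712 brain peaks, 81375 kidney peaks, 72971 lung peaks and 31594 spleen peaks.

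Liver peaks were dense in parts of the Serpina window. The authors' lists placed 129 liver peaks there, against 1 brain, 20 kidney, 4 lung and 16 spleen peaks. Neighbouring liver peaks had a median spacing of 1200 bp, but the widest gap was 100545 bp, and the last liver peak lay at 105653206. Averaged over the window there were 143 liver peaks per Mb, where the whole liver list averaged 22.4. Spleen, at 17.8 per Mb, also stood above its list mean of 12.2. Brain, kidney and lung, at 1.11, 22.2 and 4.44, stood below theirs of 35.5, 31.5 and 28.3. In the Mup window there were 39 liver peaks, 15 brain peaks, 2 kidney peaks, 10 lung peaks and 7 spleen peaks. All 39 liver peaks lay after the first 100 kb of the Mup window. In contrast, 14 of the brain, both of the kidney, 9 of the lung and 5 of the spleen peaks lay within the first 100 kb. In the 1950 kb of the Mup window, the widest gap between neighbouring liver peaks was 584425 bp.

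A bin counted as restricted if 1 tissue had 20 reads or more in it and its normalised count was 4 or more times that of every other tissue, any count under 3 being raised to 3. In the Serpina window 12 of 90 bins (13.3%) were restricted to liver, where 0.165% of all bins of the genome were. In the Mup window it was 16 of 195 (8.21%). With scaling by total reads the counts were 20 Serpina and 20 Mup bins, and 0.248% of all bins, and without the spleen library they were 20 and 21, and 0.352%. Taking only bins with at least 20 liver reads, the shares were 16.2% of 74 bins for Serpina and 24.6% of 65 for Mup, and 0.186% over the genome. No bin of either window was restricted to brain, kidney, lung or spleen, which in the genome held for 0.0108%, 0.0507%, 0.00658% and 0.0794% of bins. The restricted bins took 46.5% of the liver reads of the Serpina window and 45.1% of those of the Mup window. Their fold of normalised reads over the next highest tissue, with the floor of 3 as in all folds here, was 4.04 to 15.7 with a median of 8.47 for Serpina. It reached 21.6 with a median of 8.74 for Mup. The next highest tissue stood at the floor in 1 Serpina and 3 Mup bins.

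Not all of the Serpina window was high in liver. On the normalised scale liver was the highest tissue in 40 of 90 bins, spleen in 47 and kidney in 3, and with scaling by total reads liver was the highest in 49 and spleen in 30. In the Mup window liver was the highest in 70 bins, spleen in 71, kidney in 9, and brain and lung in 2 each. With total reads the Mup counts were 87 for liver and 35 for spleen. The 41 Mup bins with no read have no highest tissue and are left out. How often each tissue was the highest over the genome was not computed. The median bin of the genome held 49 spleen and 47 liver reads, and spleen had the lowest scaling factor, 0.671. A spleen lead is therefore not read as particular to these windows.

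**Figure D2:**
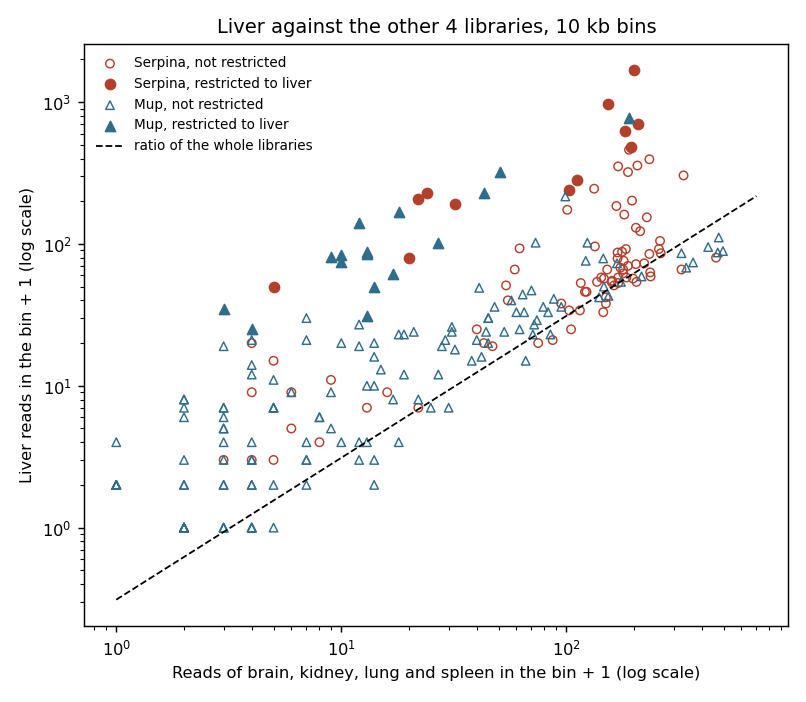
Liver reads against the summed reads of brain, kidney, lung and spleen in each 10 kb bin of the Serpina window (circles) and the Mup window (triangles), 1 added to both, on log axes. Filled symbols are the 12 and 16 bins restricted to liver, and the dashed line is the ratio of the whole libraries.

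The 12 Serpina bins fell into 8 separate places. The first ran over 104880001 to 104900000 with 1175 liver reads, against 139 in spleen, 106 in kidney, 84 in lung and 71 in brain, 4.85 times spleen (4.07 to 5.83). Further on, 104970001 to 104980000 held 228 liver reads, and 3, 5, 2 and 13 in brain, kidney, lung and spleen, a fold of 10.1 (5.77 to 19.2). The bin of 105060001 to 105070000 held 49 liver reads, while brain and lung were at 0, kidney at 3 and spleen at 1, 9.38 times spleen at its floor of 3. Neighbouring bins at 105090001 to 105110000 held 268 liver reads, 9.05 times spleen (5.55 to 15.8), and those at 105130001 to 105150000 held 487 liver reads, 5.71 times spleen (4.25 to 7.82). The bin at 105320001 to 105330000 held 622 liver reads, 6.26 times spleen (4.77 to 8.37). The eighth place, 105620001 to 105630000, held 239, 4.16 times spleen (2.88 to 6.18).

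The seventh place, 105570001 to 105590000, was the highest of either window. It had 2645 liver reads, against 118 in spleen, 71 in kidney, 102 in lung and 60 in brain, 12.9 times spleen (10.7 to 15.6). Its bin at 105580001 to 105590000 alone held 1670 liver reads, 13.6% of all liver reads of the window, and 28, 47, 62 and 61 in brain, kidney, lung and spleen. This bin stood at rank 89 of 258187 by liver reads. The bin before it, 105570001 to 105580000, held 975 liver reads and stood at rank 187.

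Per kb, the liver reads of this place lay mainly in 10 neighbouring kb. Between 105573001 and 105576000 each kb held 7 to 11 liver reads. The next 10 kb held 170, 367, 242, 155, 184, 226, 382, 257, 272 and 307 liver reads in order. Then the counts were 34, 6 and 0, but the other 4 tissues also had 0 reads in the last 2 of these kb. The exact edge of the liver reads is therefore not known. In the next bin, 105590001 to 105600000, liver had 71 reads, against 68 in spleen, 48 in kidney, 45 in lung and 42 in brain. The most that any of the other tissues had in a single kb of this stretch was 29 reads, in lung at 105583001 to 105584000, where spleen had 24. Liver reads lay on both strands in each of the 10 kb, for example 184 plus and 198 minus in the kb with 382.

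**Figure D3:**
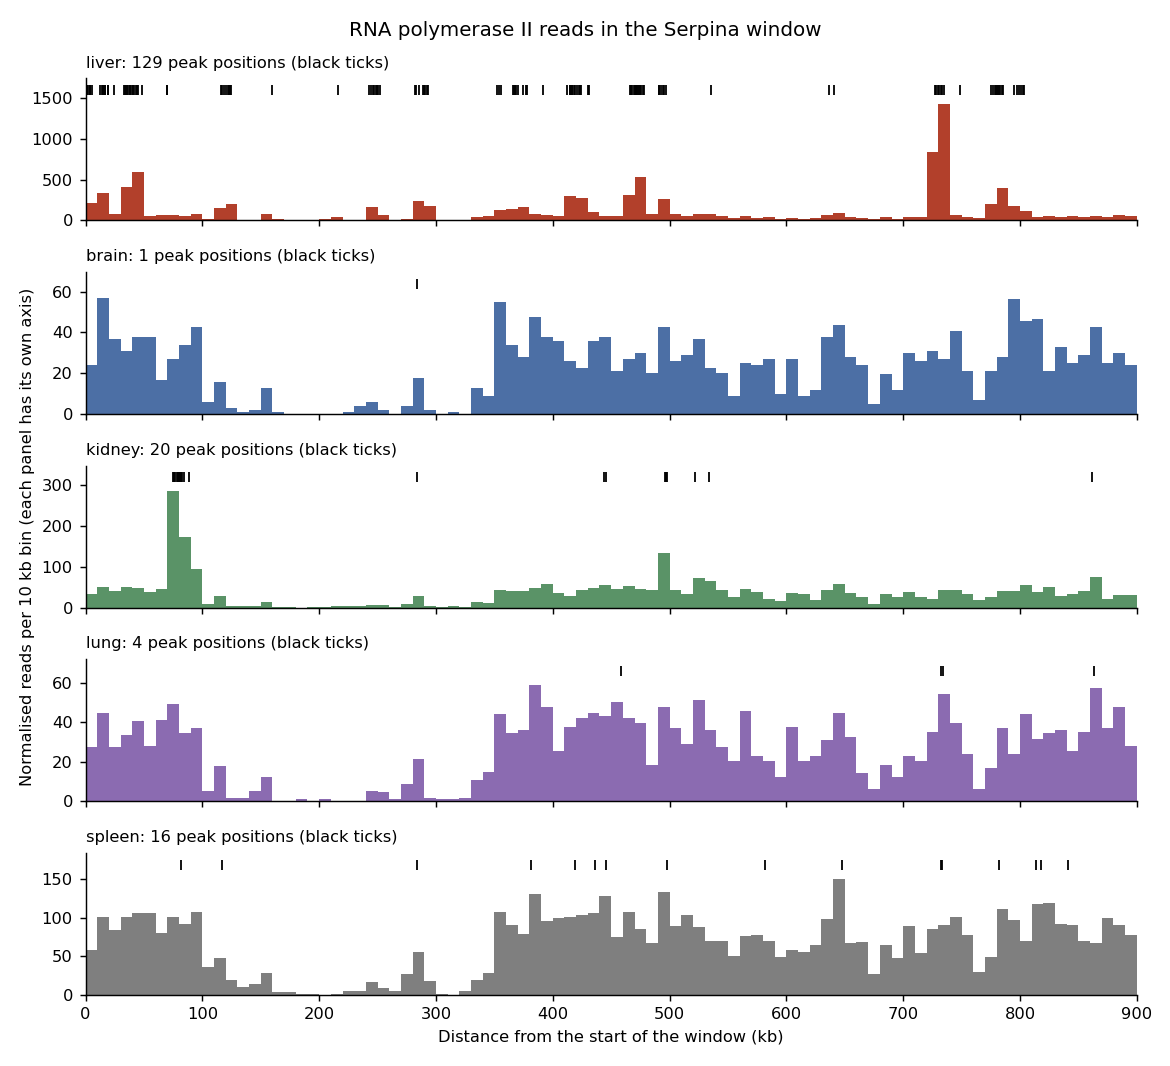
Normalised reads per 10 kb bin along the Serpina window, 1 panel per tissue with its own axis, against the distance from the start of the window in kb; black ticks are the authors' peak positions. Liver has 129 peaks and its tallest bins between 720 and 740 kb, while the tallest kidney bins lie between 70 and 90 kb.

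Kidney had a place of its own in the Serpina window. The bin at 104920001 to 104930000 held 310 kidney reads, against 79 in liver, 28 in brain, 56 in lung and 68 in spleen, and the next bin held 188 in kidney, 65 in liver, 35 in brain, 39 in lung and 62 in spleen. Kidney was the highest tissue in both, and liver stood at 0.238 (0.184 to 0.306) and 0.323 (0.240 to 0.430) of kidney. Neither bin reached the 4-fold rule, although with scaling by total reads 1 of them, 104920001 to 104930000, was restricted to kidney. Of the 20 kidney peaks of the window, 11 lay in its first 100 kb.

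Among the peak regions, 60 of 147 in the Serpina window (40.8%) were restricted to liver by the same rule, where 1.96% of all peak regions were. In the Mup window it was 26 of 57 (45.6%). Of regions with at least 20 liver reads, 69.8% of 86 and 96.3% of 27 were restricted, and 10.7% over the genome. Most of these regions were drawn around liver peaks, since 114 of the Serpina and 34 of the Mup regions held a liver peak and no other, so the shares also depend on where liver peaks lie. Peaks of at least 2 tissues stood in 9 Serpina and 8 Mup regions, and none held peaks of all 5. The matching shares over all peak regions are not given here, so these counts of shared and unshared peaks are not read as particular to the windows. The region just inside the 4-fold rule was at 4.02 in Serpina and 4.21 in Mup, and that just outside at 3.83 and 3.67. Liver counts of the restricted regions ranged over 21 to 273 with a median of 42 in Serpina, and over 22 to 246 with a median of 29.5 in Mup. All 4 other tissues were at 0 in 1 of the restricted Serpina and 5 of the restricted Mup regions.

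Of the 8 restricted Serpina regions with the most liver reads, 6 lay in the seventh place. The region at 105581876 to 105582536 held 273 liver reads, 16 in spleen, 7 in kidney, 14 in lung and 7 in brain, 9.79 times spleen (5.92 to 17.4). Lung and spleen also had peaks in this region and in the next, 105582976 to 105583941, with 247 liver, 9 brain, 15 kidney, 28 lung and 23 spleen reads. This second region held the most lung and the most spleen reads of all regions of the window, and liver was still 6.16 times spleen (4.02 to 9.91). Other regions of the run had only liver peaks. At 105576776 to 105577276 there were 234 liver reads and 0, 2, 4 and 7 in brain, kidney, lung and spleen, a fold of 19.2 (9.17 to 48.3). At 105577876 to 105578376 there were 157 liver reads and 2, 0, 5 and 4 in brain, kidney, lung and spleen, a fold of 22.5 (8.63 to 83.7), and at 105584726 to 105585226 there were 216 liver reads and 1, 2, 2 and 8 in those tissues, a fold of 15.5 (7.73 to 36.4). The region at 105580276 to 105580776, also in this place, held 113 liver reads and at most 2 in any other tissue.

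The other 2 of these 8 lay near the start of the window. The region at 104869366 to 104869866 had 115 liver reads and 4, 4, 4 and 5 in brain, kidney, lung and spleen, 13.2 times spleen (5.50 to 41.4). At 104894951 to 104895451 liver had 112 reads and brain, kidney, lung and spleen 2, 3, 1 and 4, 16.1 times spleen (6.11 to 60.0). One region, 105132761 to 105133761, held peaks of liver, brain, kidney and spleen. Its counts were 60 in liver, 20 in spleen, 20 in kidney, 9 in lung and 12 in brain. Liver was 1.72 times spleen there (1.02 to 3.02), so it was not restricted although the bin around it was.

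In the Serpina window 3 of 147 regions (2.04%) were restricted to kidney, where 0.812% of all regions were. No region of either window was restricted to brain, lung or spleen, which held for 0.573%, 0.116% and 0.327% of all regions. The 3 kidney regions all lay in the kidney place. They held 24 kidney reads at 104924361 to 104924861, 46 at 104925211 to 104925711 and 29 at 104926311 to 104926811, while liver had 5, 7 and 1. The folds over the next highest tissue were 4.92, against spleen at its floor of 3, 5.65 (2.26 to 18.2) and 4.46 (1.56 to 17.4), and both intervals reached below 4. The region with the most kidney reads, 104930861 to 104932611, had 67 in kidney, 10 in liver, 6 in brain, 12 in lung and 22 in spleen and was not restricted, at 1.87 times spleen (1.14 to 3.18). Without the spleen library 6 regions were restricted to kidney, and with a minimum of 50 reads none was. The share of all regions under these 2 settings was not computed, so a general rise or fall cannot be told from one in this window.

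Many, but not all, restricted liver regions stood in runs. A run joined at least 3 of them with gaps of at most 5 kb, and the Serpina window had 8 such runs, 4.85 to 11.2 kb long. Runs over the rest of the genome are not given here, so runs are not read as particular to these windows. The run of 105576776 to 105585226 had 7 regions and 2312 liver reads over 8.45 kb, 274 per kb, against 83 reads in spleen, 56 in kidney, 85 in lung and 39 in brain, a fold of 16.0 (12.8 to 20.2). The longest, 104884251 to 104895451, had 9 regions and 989 liver reads, 6.84 times spleen (5.46 to 8.66). Another of 10 regions, 105316021 to 105325921, had 799 liver reads, 7.52 times spleen (5.79 to 9.92). The run of 105264231 to 105274381 stood lowest, at 3.84 times spleen (3.02 to 4.94) over its whole span.

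The Mup window had 2 runs. That of 61744126 to 61764126 was the longest of both windows and joined 12 regions. It held 1226 liver reads, 61.3 per kb, against 76 in spleen, 63 in kidney, 66 in lung and 42 in brain, a fold of 9.26 (7.34 to 11.8). The other, 61255781 to 61263581, held 194 liver reads in 3 regions, against 1, 4, 0 and 9 in brain, kidney, lung and spleen, 12.4 times spleen (6.39 to 27.5).

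The 16 restricted Mup bins fell into 7 places, spread between 60070001 and 61770000. The last, 61740001 to 61770000, held 1314 liver reads, against 91 in spleen, 74 in kidney, 71 in lung and 45 in brain, 8.29 times spleen (6.70 to 10.4). Its first bin had 768 liver reads, 14.9% of the liver reads of the window, with 32, 49, 54 and 54 in brain, kidney, lung and spleen. That bin stood at rank 270 of the genome by liver reads. The next bins held 319 and 227 liver reads.

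The other places were smaller, and no other tissue had more than 21 reads in any of them. At 61170001 to 61200000 there were 274 liver reads, and 13 in spleen, 19 in kidney, 4 in lung and 3 in brain, 12.1 times spleen (6.96 to 23.0). At 61250001 to 61280000 there were 303 liver reads, and 4, 12, 5 and 21 in brain, kidney, lung and spleen, 8.28 times spleen (5.32 to 13.6). At 61430001 to 61460000 there were 167 liver reads, and 4, 11, 4 and 9 in brain, kidney, lung and spleen, 10.7 times spleen (5.48 to 23.7). Nearer the start of the window, 60070001 to 60090000 held 104 liver reads and at most 8 of another tissue. The bin of 60510001 to 60520000 held 84 liver reads, 12.1 times spleen (4.54 to 45.3). That of 60590001 to 60600000 held 80, with spleen at 0 and kidney at 5, 14.9 times kidney (6.15 to 47.3).

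**Figure D4:**
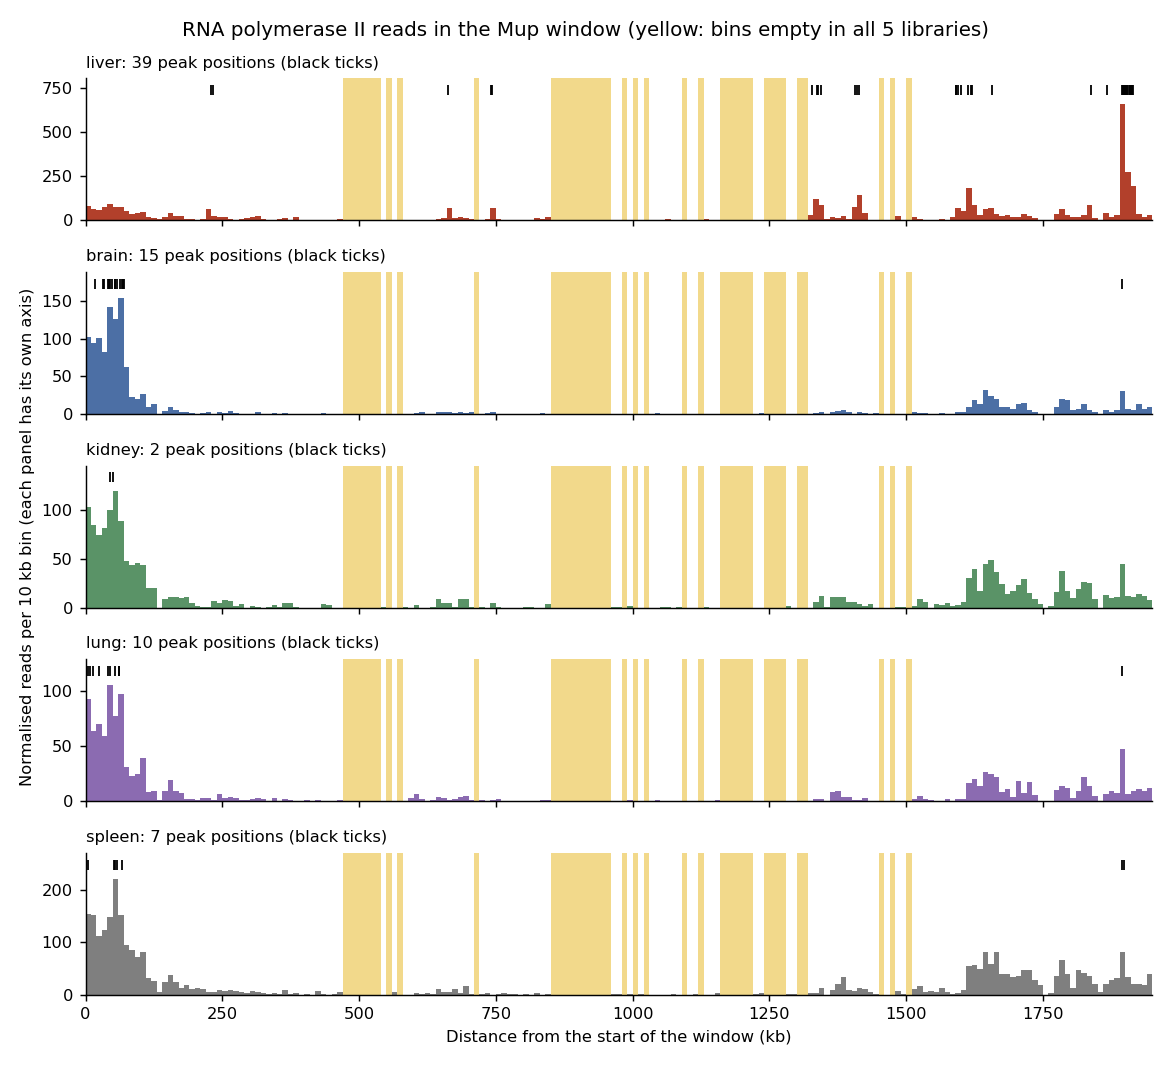
Normalised reads per 10 kb bin along the Mup window, 1 panel per tissue with its own axis, against the distance from the start of the window in kb; black ticks are the authors' peak positions and yellow marks the 41 bins with no read in any of 5 libraries. Liver has its tallest bin at 1890 kb, and the other tissues have theirs in the first 100 kb.

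The Mup peak region with the most liver reads was 61744126 to 61745576. It held 246 liver reads, 24 in spleen, 16 in kidney, 32 in lung and 19 in brain, and liver, brain, lung and spleen all had a peak in it. Liver was 5.88 times spleen (3.86 to 9.36), and the region also held the most lung and the most spleen reads of the window. Further on, 61747926 to 61748651 had 189 liver reads and 8, 12, 8 and 12 in brain, kidney, lung and spleen, 9.04 times spleen (5.06 to 17.8). Between them, 61745676 to 61746176 held 70 liver reads, with brain and spleen at 0 and kidney and lung at 3 each, 13.4 times spleen at its floor of 3. A later region of the same run, 61759576 to 61760076, held 59 liver reads and at most 1 of another tissue.

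Elsewhere in the Mup window, 61263081 to 61263581 held 87 liver reads and 1, 0, 0 and 3 in brain, kidney, lung and spleen, 16.6 times spleen (5.51 to 82.3). The neighbours 61468996 to 61469496 and 61469896 to 61470396 held 55 and 64 liver reads, 6.31 times spleen (2.55 to 20.2) and 8.54 times kidney (3.92 to 22.1). At 60078551 to 60079051 liver had 61 reads and no other tissue more than 2.

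The first 100 kb of the Mup window was unlike the rest. It held 752 liver reads, 938 brain reads, 859 kidney reads, 733 lung reads and 880 spleen reads, and so 938 of the 1438 brain reads of the whole window. Liver made up 18.1% (16.9 to 19.3) of its reads, below its 23.7% of all reads of the 5 libraries. The region with the most brain reads and the most kidney reads of the window lay there, 59911261 to 59912511, with 13 in liver, 14 in spleen, 19 in kidney, 31 in lung and 24 in brain.

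In blocks of 100 kb, the liver share of the reads varied widely along both windows. In the Serpina window it was highest at 105050001 to 105150000, 77.2% (74.6 to 79.6), and at 105550001 to 105650000, 71.7% (70.5 to 72.9). The blocks at 105350001 to 105450000, 105450001 to 105550000 and 105650001 to 105750000 were at 27.2% (25.3 to 29.2), 24.7% (22.7 to 26.8) and 26.5% (24.7 to 28.3), and of these only the second included the 23.7% of the whole libraries. In the Mup window the block at 61250001 to 61350000 was at 84.9% (81.0 to 88.3), with 337 of 397 reads from liver. The block at 60350001 to 60450000 held 8 reads in all and none from liver, which allows a share of up to 36.9% (exact binomial upper limit).

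**Figure D5:**
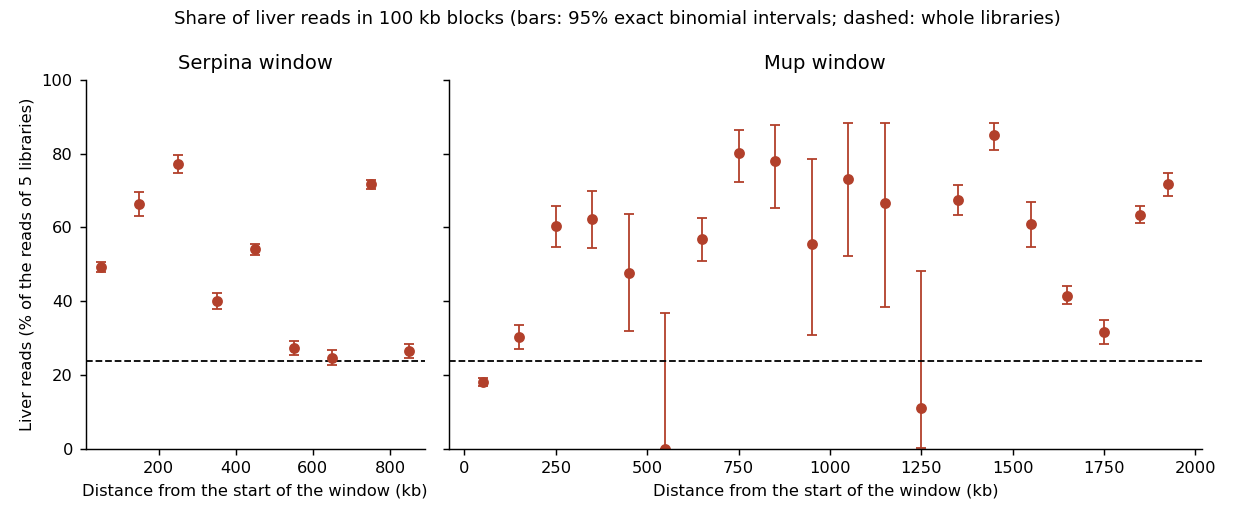
Liver reads as a percentage of the reads of all 5 libraries in 100 kb blocks along the Serpina window (left) and the Mup window (right); bars are 95% exact binomial intervals and the dashed line is the 23.7% of the whole libraries. Blocks reach 77.2% in Serpina and 84.9% in Mup, and wide bars mark Mup blocks with few reads.

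Much of the Mup window held no reads. Of its 195 bins, 41 (21.0%) held no read of any library, where 1.96% of all bins were empty, and 95 (48.7%) held at most 10 reads, where 3.39% did. In the Serpina window no bin was empty and 5 of 90 (5.56%) held at most 10 reads. The median bin had 12 reads over the 5 libraries in Mup, 227 in Serpina and 201 in the genome. A bin empty in every library says nothing of polymerase in any tissue. Whether the empty stretches are copies to which reads could not be aligned was not tested, since no genome of this build was used here.

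The longest stretch without a read in the Mup window ran over 111699 bp at 60699802 to 60811500, and 77 stretches of the genome were as long. The next were 79924 bp at 60319347 to 60399270, 75650 bp at 61003600 to 61079249, 49680 bp at 61087308 to 61136987 and 25267 bp at 61144934 to 61170200. The last of these ended where the 3 restricted liver bins at 61170001 to 61200000 began. Stretches of at least 10 kb without a read took up 32.0% of the Mup window, none of the Serpina window and 2.50% of the genome. Stretches of at least 1 kb took up 64.2% of Mup, 15.8% of Serpina and 9.64% of the genome.

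In the Serpina window the 5 longest stretches were 6486 to 7557 bp, and the longest ran over 105146895 to 105154451, beginning inside the liver place of 105130001 to 105150000. The fourth lay at 105439821 to 105446574. The other 4 lay between 105010000 and 105180000.

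Leaving out stretches of at least 1 kb without a read, 758 kb of the Serpina and 699 kb of the Mup window remained. Per kb of this sequence the Serpina window had 16.2 reads in liver, 5.25 in spleen, 4.67 in kidney, 3.44 in lung and 2.73 in brain. The Mup window had 7.38 in liver, 3.18 in spleen, 2.82 in kidney, 2.08 in lung and 2.06 in brain. The genome had 6.41 in liver and 4.41, 5.91, 4.65 and 5.69 in brain, kidney, lung and spleen. Liver reads themselves decide in part which sequence is kept, so these densities are not compared further.

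Sparse bins, those with under 20 reads in the 4 other libraries together, made up 138 of 195 Mup bins (70.8%) and 14 of 90 Serpina bins (15.6%), where 4.46% of all bins were sparse. In them liver had 1375 of 1923 reads in Mup, 71.5% (69.4 to 73.5), and 214 of 308 in Serpina, 69.5% (64.0 to 74.6). Over all sparse bins of the genome the liver share was 29.1% (28.8 to 29.4). In the remaining bins it was 36.7% in Mup, 50.0% in Serpina and 23.7% in the genome. Low counts of the other tissues define a sparse bin, and the genome value carries the same selection.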

How the data were processed

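RNA polymerase II was measured by chromatin immunoprecipitation and sequencing in 1 library for each tissue. Crosslinking was with 1% formaldehyde and fragments were 0.2 to 0.8 kb long, per the labels' protocols. The authors deposited 2 files per tissue, a list of aligned reads of mostly 35 bases with start, end and strand, and a list of peaks given as single positions on a 5 bp grid without a score. Bowtie was used, per the submitters' processing notes; the sources used here give neither its settings nor the peak caller. The windows were defined in mm9, and no coordinate was converted.

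Each read was counted by its 5′ end. Between 4 and 15 lines of a library, shorter than 34 or longer than 36 bases, were dropped. Peak positions were extended by 250 bp to both sides and merged over tissues, with any overlap of at least 1 bp. Folds are normalised liver reads over those of the next highest tissue, any count under 3 being raised to 3. Where none was raised they have 95% exact conditional binomial intervals, and shares have exact binomial intervals. No p-value was computed. The restriction rule was tried on simulated counts that held counting error only. At a simulated fold of 4 in liver it called 4 of 50 bins and 5 of 50 regions. At a fold of 6 it called 49 of 50 bins and 43 of 50 regions. Of the unchanged bins and regions it called 0. Only bins and regions averaging 20 or more reads per library after scaling were given a simulated fold. The call rates at folds of 4 and 6 therefore do not describe sparser ones. The median Mup bin, with 12 reads over 5 libraries, is such a case. The named places were, per window, the 8 liver-restricted regions and the 5 bins with the most liver reads, the region with the most reads of each other tissue, all regions restricted to another tissue and the 5 longest read-free stretches. The windows, lists and rules were chosen with earlier results of these data known, and sparse bins, places, runs and 100 kb blocks were added after seeing the data. Promoter words came from RefSeq entries, the first listed per gene, aligned with Biopython 1.88. Other work used SciPy 1.17.1, pandas 2.3.3, NumPy 2.4.6 and Matplotlib 3.10.9 under Python 3.11.15.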

Additional observations from a re-analysis of the deposited data

How the results depend on the processing

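The fold of liver over the next highest tissue rests on the spleen library and its scaling. In the Serpina window it was 1.77, and 2.74 with total reads, 1.67 with the window widened and 1.70 with it narrowed by 50 kb at both ends, 3.25 without spleen and 3.20 without spleen with total reads. In the Mup window it was 1.33, and 2.06, 1.18, 1.41, 2.45 and 2.41 under the same settings. Liver stayed highest in each of these. Leaving out spleen was chosen after seeing the data, as were all alternatives for kidney and for single regions.

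Liver-restricted Serpina bins numbered 12, but 20 with total reads, 21 at 2-fold, 6 at 8-fold, and 20 without spleen under either scaling. Over the genome these settings called 0.248%, 0.644%, 0.0573%, 0.352% and 0.288% of bins. Mup bins numbered 16, but 25 at 2-fold and 9 at 8-fold. With a minimum of 50 reads, liver-restricted regions numbered 25 of 60 in Serpina and 8 of 26 in Mup, and kidney-restricted regions 0 of 3. Kidney regions numbered 6 without spleen under either scaling. Other settings gave 11 to 12 Serpina and 12 to 21 Mup bins, and 47 to 71 and 21 to 27 liver regions. For regions, the share over the genome was computed under the main setting only.

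Serpina had 0 empty bins, but 5 with at most 10 reads and 3 at a bin size of 5 kb. Single libraries left 0 empty in liver, 2 in spleen, 1 in kidney, 6 in lung and 8 in brain. Mup had 41, but 95 with at most 10 reads and 115 at a bin size of 5 kb. Single libraries left 58 empty in liver, 62 in spleen, 78 in kidney, 91 in lung and 107 in brain. Genome shares were not computed for single libraries or for bins of 5 kb. Without liver reads the longest empty stretches were 9555 and 113097 bp, against 7557 and 111699 bp. Of 66 repeats over 22 named regions, 63 kept to their side of the 4-fold rule, and the other 3 concerned kidney-restricted regions. No paired analysis was possible because each tissue had 1 library and the labels give no replicate numbers. Few reads limit what the Mup window shows, where the median bin held 12 over 5 libraries, and the cause of the low counts was not tested.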
